A study of Mus musculus with 48 samples.

Results

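The transcripts of 9 proteins of blood plasma, most of them carriers of lipids, hormones, vitamins, iron or heme, were followed across liver, isolated hepatocytes, liver spheroids in culture, spheroids engrafted in the eye, and iris: Alb, Gc, Ttr, Rbp4, Trf, Hpx, Ambp, Ahsg and Fetub. They were taken by name from the gene symbols of the deposited tables, each matched 1 gene, and they make up 9 of the 46517 genes counted. All 9 passed the filter on low counts or low TPM in each of the 8 comparisons. By the coordinates of the deposited tables (GRCm38), Alb lies at chr5:90460897-90476602 (plus strand) and Gc at chr5:89417522-89457898 (minus), Ahsg at chr16:22892042-22899438 (plus) and Fetub at chr16:22918382-22939766 (plus). Trf lies at chr9:103204001-103230444, Rbp4 at chr19:38116620-38125321, Hpx at chr7:105591613-105600116 and Ambp at chr4:63143275-63154799, all on the minus strand, and Ttr on chromosome 18. Each gene was set against the rest of the transcriptome in the same fit.

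The samples were 5 explants (numbered 1, 2, 4, 5 and 6), 3 naïve irises, 3 endogenous livers of donor mice, 3 preparations of hepatocytes isolated from donor livers, and 2 samples of spheroids kept in vitro, each sequenced by Smart-seq3 from total RNA as 3 technical libraries. The labels give C57BL/6N as strain and WT Albino as genotype for all of them, whereas the methods list another albino C57BL/6 line and adult mice of both sexes, and no sex, age or animal is tied to a sample. Spheroids were formed from hepatocyte-enriched liver cells, cultured in medium with insulin, transferrin, selenium and dexamethasone, and placed on the iris of recipient mice. An explant, taken 2 months post-tx, held the engrafted spheroid together with the iris around it. The methods speak of biological replicates in each experiment, but no source used here ties an animal to a sample, so the p-values measure the spread between these samples. In such bulk samples fewer cells of a type and less RNA per cell cannot be told apart.

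Most proteins of plasma other than antibodies are made by hepatocytes, which secrete them without storing them, and their transcripts are among the most abundant in liver. Albumin holds the osmotic pressure of plasma and carries fatty acids, bilirubin and drugs. Most of the other members bind a narrower cargo, and some pass it to receptors on target cells or in the kidney. Several of these proteins also have sources outside the liver: transthyretin is made by the choroid plexus and the retinal pigment epithelium, and transferrin by glia and by epithelia of the eye.

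The promoters of 4 members are shown because they stand for 2 pairs of related genes. Alb and Gc are paralogues of the albumin family that lie 1003 kb apart on mouse chromosome 5. They moved differently below in the comparisons with iris. Their differences from liver were close in hepatocytes (0.32 and 0.28 on the log2 scale) and in spheroids (0.12 and 0.22). Ahsg and Fetub, the fetuin paralogues that lie 18.9 kb apart on chromosome 16, moved differently in spheroids and in explants. Each line gives the 150 bases before the RefSeq transcription start (GRCm38.p6), 5′ to 3′ on the strand of the gene, with capitals for the motifs GTTAAT, known from promoters of liver genes, and for TATANA, which resembles a TATA box.
Alb, chr5:90460720-90460869, plus strand: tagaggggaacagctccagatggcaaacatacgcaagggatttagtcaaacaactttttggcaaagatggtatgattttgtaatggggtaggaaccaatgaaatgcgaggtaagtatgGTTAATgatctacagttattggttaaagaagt
Gc, chr5:89457899-89458048, minus strand: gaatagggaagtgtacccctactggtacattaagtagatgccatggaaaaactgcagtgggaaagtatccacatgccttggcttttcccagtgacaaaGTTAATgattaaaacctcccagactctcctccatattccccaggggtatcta
Ahsg, chr16:22891865-22892014, plus strand: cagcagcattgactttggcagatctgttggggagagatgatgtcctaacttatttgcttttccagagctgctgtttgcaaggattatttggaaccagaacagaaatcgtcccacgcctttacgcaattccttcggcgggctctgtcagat
Fetub, chr16:22918232-22918381, plus strand: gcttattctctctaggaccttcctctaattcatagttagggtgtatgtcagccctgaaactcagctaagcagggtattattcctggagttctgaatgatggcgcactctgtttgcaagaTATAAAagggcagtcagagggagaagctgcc
A promoter was found for 7 members, and the window searched was the 250 bases before the start, on both strands. For Alb and Ahsg the RefSeq start lay 27 bases before the gene start of the deposited coordinates, so those 27 bases were not searched. For Ambp it lay 627 bases inside the gene. GTTAAT was present in Alb, 32 bases before the RefSeq start, and in Gc, 52 bases before it, and in 6.43% of the 32851 promoters in the table. TATANA was present in Gc, Fetub and Hpx, against 22.6% of all promoters, and in Fetub it began 31 bases before the start. In Gc it lay 154 bases before the start, outside the bases shown. The CCAAT motif was present in 6 of the 7, against 33.8% of all promoters. These are matches of letters and not tested sites.

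Total counts were 5449589 to 6789648 per explant, 4596550 to 4881817 per iris, and 2718518 to 3871404 per liver or hepatocyte sample, and the spheroid samples had 3247327 and 3447643. The livers, hepatocytes and spheroids carried the hepatocyte markers at 6893 to 13043 TPM summed over 10 genes, against 539 to 640 TPM in iris and 2327 to 4253 TPM in the explants, and none of the 10 was at 0 throughout any group. The 5 iris and anterior eye markers summed to 292 to 325 TPM in iris, 185 to 274 TPM in explants and 2.12 to 5.50 TPM in liver, hepatocytes and spheroids. The 4 pigment cell markers summed to 8466 to 8863 TPM in iris and 6049 to 7687 TPM in explants. They also reached 537 to 551 TPM in liver, 546 to 590 TPM in hepatocytes and 434 to 524 TPM in spheroids. The source of these pigment cell transcripts outside the eye was not tested. The iris share of each explant, solved from the deposited tables, was 82% for explant 1, 68% for explant 2, 81% for explant 4, 72% for explant 5 and 59% for explant 6. Of the non-parenchymal markers, the 4 macrophage genes summed to 593 to 1350 TPM in explants, 397 to 436 TPM in iris and 185 to 533 TPM in liver, and the 4 sinusoidal endothelial genes to 3.14 to 18.6 TPM in explants and 192 to 244 TPM in liver.

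Duplicate reads had been removed before counting, and the members stand at the top of the range of counts that remained. The highest value of any gene of at least 500 bases was 1.44 to 1.70 counts per exonic base, depending on the library, over 48 libraries. Alb reached 1.56 counts per base in liver, the highest of 34169 genes of that length, Hpx reached 1.41 and Ahsg 1.401. Gc had 1.23, Trf 1.02, Ambp 1.005, Rbp4 0.98 and Ttr 0.83 counts per base in liver, and Fetub, at rank 113, had 0.49. In iris the same genes had 0.00558 (Fetub) to 0.44 (Alb) counts per base. Differences between groups are also given with a limit of 2 counts per base undone, which is an assumption about how the counts saturate and not a measurement. The plot of counts per base by sample shows which members lie near the highest values.

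**Figure D1:**
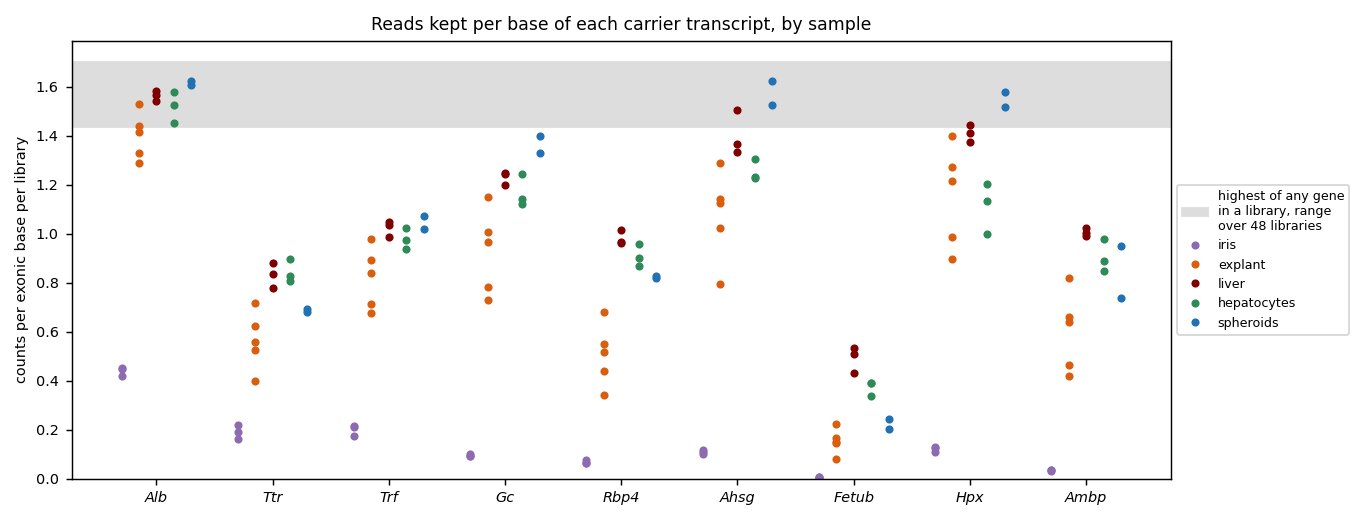
Counts per exonic base per library (y axis) of each member, with 1 point per sample coloured by group, and a gray band for the range over the 48 libraries of the highest value of any gene of at least 500 bases (1.44 to 1.70). Alb in liver, hepatocytes and spheroids lies within the band, whereas Fetub stays at or below 0.53 in every sample.

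In liver, Alb was the most abundant transcript of all genes by mean TPM, Hpx ranked 3 and Ahsg 5, and Fetub, the lowest member, ranked 125. The 9 members together took 1.97 to 2.09% of all TPM in liver, 2.01 to 2.40% in hepatocytes, 2.27 and 2.29% in the spheroids, 0.921 to 1.26% in explants and 0.208 to 0.25% in iris. Between technical libraries of 1 sample the coefficient of variation of a member was 4.86% at the median in liver and 5.64% in explants, and reached 40.1% for Fetub in an iris, where that sample held 30 counts. Reads of Trf are not unique to it: 2108 of its 3320 exonic bases, or 63.5%, are shared on the same strand with the annotated gene Gm20425, and reads there were counted for both genes.

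The first question was whether the graft carried the plasma carriers above the level of the iris it sat on. All 9 members were called higher in the explants than in the naïve irises (edgeR quasi-likelihood test, adjusted p under 0.05 over 16764 genes), where 9.04% of all genes tested were called higher and 2.74% lower. The TPM of all 9 were higher without overlap, as held for 10.9% of the genes, with 13.9% lower without overlap. The members' median difference was 3.02 on the log2 scale, against 0.01 over all genes. Their differences were unequal, from 1.34 for Ttr to 4.55 for Fetub.

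Of the albumin family, Alb itself, the carrier of fatty acids and bilirubin, stood at 2107, 2209, 1948, 1819.8 and 2192 TPM in explants 1, 2, 4, 5 and 6, and at 753, 861 and 822 TPM in the irises. It was higher in every explant than in every iris, by 1.44 ± 0.11 on the log2 scale (± SE, edgeR adjusted p = 1.46e-04). Gc, the vitamin D binding protein, which also clears actin from plasma, stood at 1193, 1485, 1148, 1293 and 1648 TPM in explants and at 165, 180.2 and 186 TPM in iris. Its difference was larger, 3.04 ± 0.18 (edgeR adjusted p = 1.18e-04). The gap between these paralogues lay on the iris side: the ratio of Gc to Alb was 0.209 to 0.227 in iris, 0.566 to 0.752 in explants and 0.776 to 0.795 in liver.

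Ttr, which carries thyroxine and holds the retinol binding protein in plasma, stood at 652, 854, 769, 800.4 and 1032 TPM in explants and at 289, 370.2 and 396 TPM in iris. The groups did not overlap, and the difference was 1.34 ± 0.19 (edgeR adjusted p = 0.00238). Rbp4, its retinol-carrying partner, stood at 562, 796, 645, 707 and 977 TPM in explants and at 113, 146 and 121 TPM in iris, a difference of 2.66 ± 0.23 (edgeR adjusted p = 2.91e-04). The iris held more Ttr relative to Rbp4 than the liver-derived samples: the ratio of Ttr to Rbp4 was 2.54 to 3.28 in iris, 1.06 to 1.19 in explants, 0.808 to 0.914 in liver and 0.920 to 0.934 in hepatocytes.

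Of the iron and heme carriers, Trf (transferrin, which delivers ferric iron) stood at 1168, 1373, 992, 1079.8 and 1404 TPM in explants and at 316, 408 and 389 TPM in iris, a difference of 1.81 ± 0.17 (edgeR adjusted p = 3.92e-04). Hpx (hemopexin, which binds free heme) stood at 1614, 1951, 1316, 1564 and 2008 TPM in explants and at 196, 238 and 239 TPM in iris. Its difference, 3.02 ± 0.20 (edgeR adjusted p = 1.18e-04), was close to that of Gc and Ahsg. Ambp, the precursor of the heme-binding alpha-1-microglobulin and of the protease inhibitor bikunin, stood at 682, 1014, 683, 824 and 1178 TPM in explants and at 55.4, 71.5 and 62.4 TPM in iris, a difference of 3.91 ± 0.28 (edgeR adjusted p = 1.18e-04).

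The fetuins are liver-secreted relatives of the cystatins. Ahsg (fetuin-A), which keeps calcium phosphate in solution, stood at 1296, 1728, 1498, 1466 and 1850.2 TPM in explants and at 182, 207 and 216 TPM in iris, a difference of 3.07 ± 0.17 (edgeR adjusted p = 1.18e-04). Fetub (fetuin-B), an inhibitor of the egg-coat protease ovastacin, stood at 132, 232, 216, 214 and 323 TPM in explants and at 9.41, 13.1 and 8.56 TPM in iris. Its difference was the largest of the 9, 4.55 ± 0.37 (edgeR adjusted p = 2.02e-04), over irises with 27 to 39 counts. With the limit of 2 counts per base undone, the members' median difference rose from 3.02 to 3.44.

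**Figure D2:**
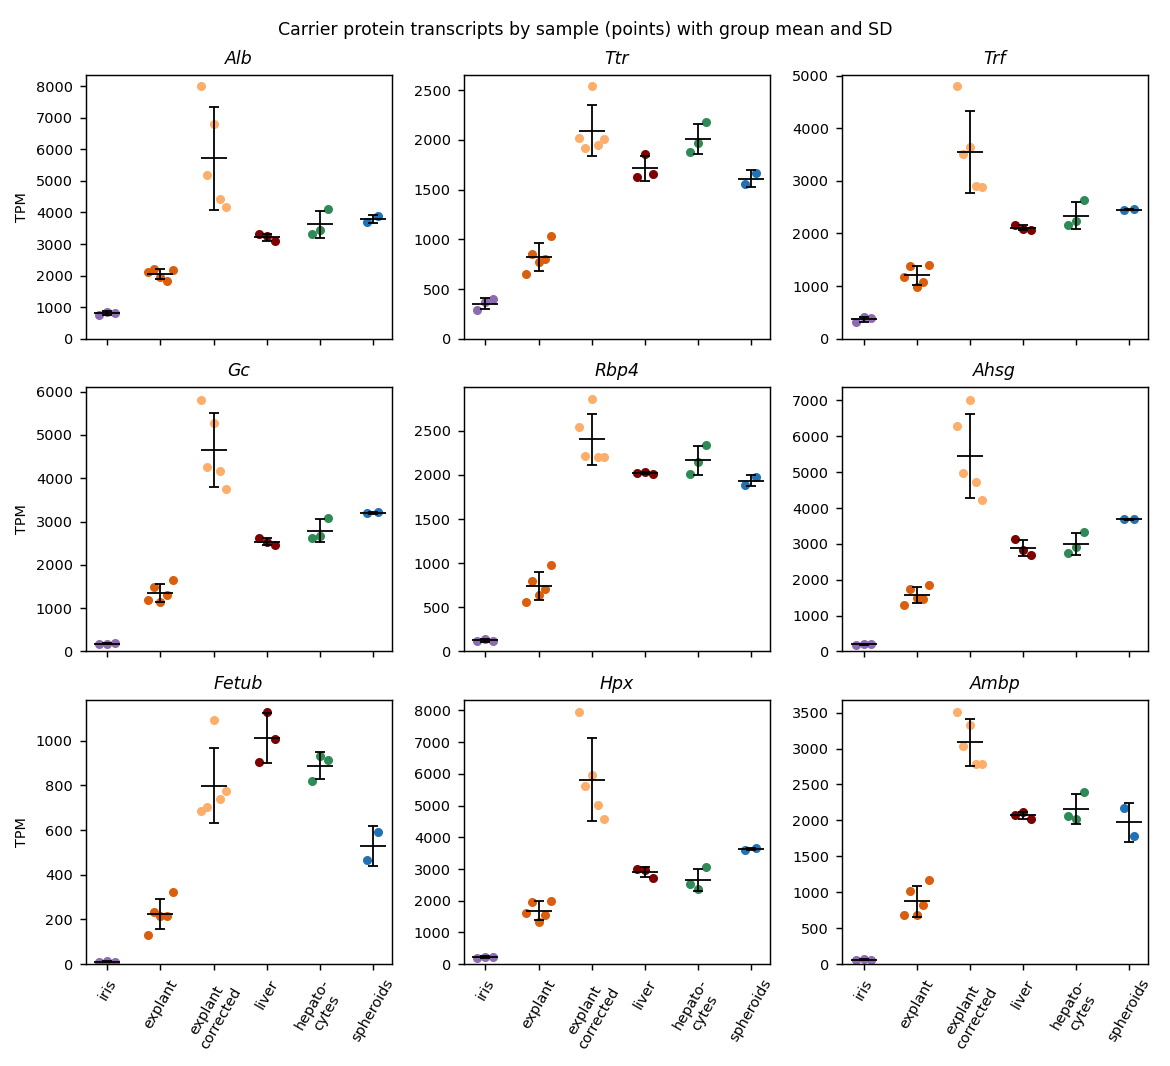
TPM (y axis, from 0, a separate scale per gene) of each member by sample in iris, explants as deposited, explants corrected for iris, liver, hepatocytes and spheroids, with 1 point per sample and the group mean ± SD (n = 3, 5, 5, 3, 3 and 2). Each member is higher in every explant than in every iris, and Fetub is the member whose mean corrected explant level lies below the liver mean.

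The iris without a graft gave the background for these values. All 9 members were called lower in iris than in liver, where 34.5% of the 15459 genes were lower and 39.1% higher, and the TPM of none overlapped, as held downward for 18% of genes and upward for 66.5%. The differences ran from -2.88 ± 0.09 for Alb and -3.18 ± 0.15 for Ttr to -5.92 ± 0.13 for Ambp and -7.50 ± 0.21 for Fetub, with edgeR adjusted p between 4.29e-09 and 1.64e-07. As a share of mean TPM, the iris level was 25.2% of the liver level for Alb, 20.5% for Ttr and 17.6% for Trf. It was 6.27 to 7.73% for Hpx, Gc, Ahsg and Rbp4, 3.05% for Ambp and 1.02% for Fetub. TPM and the edgeR fit are on different scales: TPM divides counts by gene length before scaling, and the fit rescales the libraries by TMM. With library size alone the median of all genes was 0.80 instead of 0.11.

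Beside these, the 10 hepatocyte markers stood in iris at 0.788 to 11.7% of their liver level (median 1.49%), and Apoa1, the apolipoprotein of high-density lipoprotein, was the highest. The 7 partners and cystatin-family neighbours stood at 0.942 to 2.57%, so Fetub lay within both ranges, Ambp within that of the markers, and Alb, Ttr and Trf above both. Of the 9 other plasma carriers, Tcn2 stood at 173%, Cp at 37.7% and Afp, at 1.59 TPM in iris, at 23.6%, and the median of the 1139 genes with at least 200 TPM in liver was 46.5%. With the limit of 2 counts per base undone, the share was 15.2% for Alb, 17.3% for Ttr and 13.8% for Trf. Markers of cells that are known sources of Ttr and Trf in the eye were present in iris: the 5 retinal pigment epithelium genes summed to 460 to 691 TPM, the 3 ciliary epithelium genes to 220 to 268 TPM and the 4 Schwann cell genes to 91.9 to 97.0 TPM, and none of these 12 genes was at 0 in every iris. Against liver, 4 of the 5 retinal pigment epithelium genes were called higher in iris and 1 was called lower. All 3 ciliary epithelium genes and all 3 Schwann cell genes tested were called higher. Of all genes tested, 39.1% were called higher and 34.5% lower. The part of these cells in the members' iris levels was not tested.

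**Figure D3:**
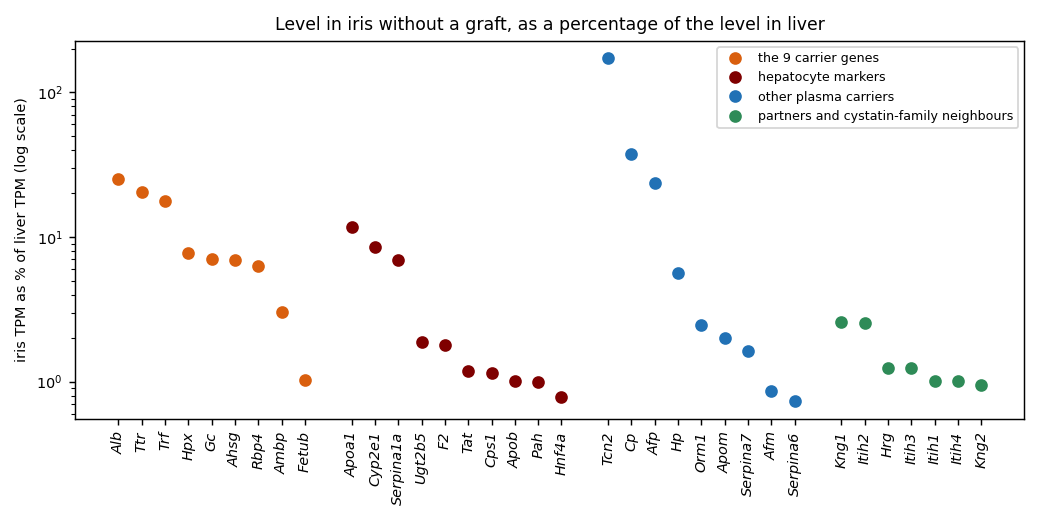
Mean TPM in iris as a percentage of mean TPM in liver (y axis, log scale) for the 9 members, 10 hepatocyte markers, 9 other plasma carriers with at least 1 TPM in liver, and 7 partners and cystatin-family neighbours, with 1 point per gene. Alb, Ttr and Trf lie at 17.6 to 25.2%, and Fetub at 1.02%.

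The 5 explants differed more in some members than in others. The share not assigned to iris ran from 18% in explant 1 to 41% in explant 6, a 2.28-fold range. Across the same samples Fetub ranged 2.45-fold in TPM, Rbp4 1.74-fold, Ambp 1.73-fold and Ttr 1.58-fold, and each of these 4 was lowest in explant 1 and highest in explant 6. Alb ranged 1.21-fold, Trf 1.41-fold, Ahsg 1.43-fold, Gc 1.43-fold and Hpx 1.53-fold. The highest Alb value belonged to explant 2 and explant 1, with the smallest graft share, reached 2107 TPM against 2192 TPM in explant 6. With the limit of 2 counts per base undone, Hpx ranged 1.96-fold, Ahsg 1.78-fold, Gc 1.67-fold, Trf 1.58-fold and Alb 1.30-fold. Fetub then ranged 2.52-fold, Ambp 1.96-fold, Rbp4 1.92-fold and Ttr 1.74-fold, so Hpx and Ahsg lay among these 4. The highest Alb value was then that of explant 6.

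The deposited correction subtracts the mean iris level times the iris share and divides by the remainder. The iris part made up 28.9% of the explant TPM of Alb on average over the 5 explants, 32.2% of Ttr and 23.02% of Trf. For Rbp4, Hpx, Gc and Ahsg it was 9.58 to 13.2%, for Ambp 5.59% and for Fetub 3.74%. The deposited values of explant 4 do not follow the stated formula, and the formula was applied to all 5 explants. Hpx was 7943, 5621, 5967, 5007 and 4574 TPM in explants 1, 2, 4, 5 and 6, and Alb was 8008, 5178, 6789, 4412 and 4177 TPM. In explants 1 and 4, with 18% and 19% graft, both were above the other 3 explants. Fetub was 686, 703, 1090.2, 739 and 774 TPM, and Ttr 2021, 1922, 2545, 1954 and 2011 TPM, with explant 4 highest for both. The part of the smaller graft share and of the larger totals in these higher values was not tested.

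**Figure D4:**
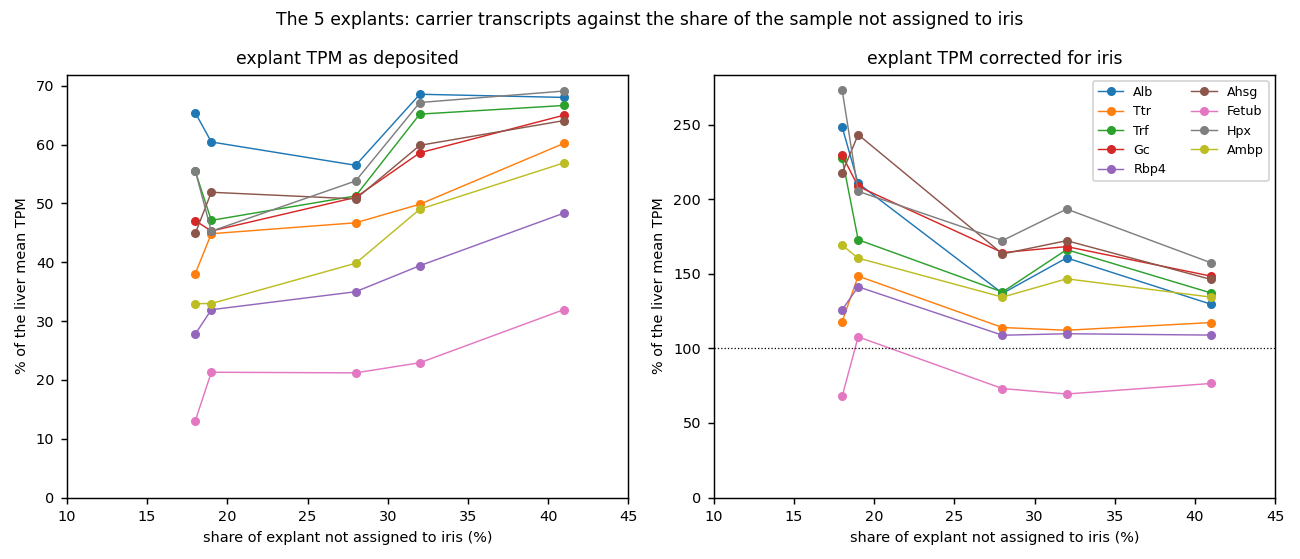
Explant TPM of each member as a percentage of the liver mean (y axes, from 0) against the share of the explant not assigned to iris (x axes, %), as deposited at left and corrected for iris at right, with 1 point per explant and a dotted line at 100% on the right. At left Fetub rises from 0.130 to 0.320 of the liver mean while Alb stays between 0.565 and 0.686 of it, and at right Hpx and Alb are highest in the explant with 18% graft.

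The second question was how the engrafted cells compared with liver. After correction, 6 of the 9 members were called higher in explants than in liver (limma on log2(TPM + 1), adjusted p under 0.05 over 21002 genes) and 0 lower, against 12.2% and 3.5% of all genes. At an unadjusted p under 0.05, 7 were higher and 0 lower, but the share of all genes past that threshold was not counted. The TPM of 8 members did not overlap and were higher, as held for 19.8% of all genes, and 0 lower, as held for 8.74%. The median of all genes was 0.61 on this scale, against 0.86 without the correction, and 5 members, Alb, Trf, Gc, Ahsg and Hpx, lay above that median. Without the correction, with the iris still in the sample, all 9 were called lower than liver.

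Hpx was highest relative to liver, at 5823 ± 1302 (SD, n = 5) corrected TPM in explants against 2905 ± 163 (SD, n = 3) in liver, a difference of 0.98 ± 0.16 (limma adjusted p = 0.00568). Ahsg differed by 0.89 ± 0.17 (limma adjusted p = 0.00834) and Gc by 0.86 ± 0.15 (limma adjusted p = 0.00582). Alb, at 5713 ± 1641 (SD, n = 5) corrected TPM against 3222 ± 111 (SD, n = 3), differed by 0.78 ± 0.21 (limma adjusted p = 0.034). Trf differed by 0.73 ± 0.16 (limma adjusted p = 0.0177) and Ambp by 0.57 ± 0.11 (limma adjusted p = 0.00817). The calls of Alb and Trf were lost when any of the 3 livers was left out, with adjusted p of 0.0561 to 0.135, and that of Alb also without explant 4 (adjusted p = 0.0609). Without liver 3, Ahsg and Ambp also missed the threshold (adjusted p of 0.0515 and 0.0514) and 2 members, Gc and Hpx, stayed called.

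The carriers of thyroxine and retinol did not pass. Ttr stood at 2091 ± 257 (SD, n = 5) corrected TPM against 1713 ± 125 (SD, n = 3) in liver, 0.28 ± 0.12 (limma adjusted p = 0.152), and Rbp4 at 2404 ± 292 (SD, n = 5) against 2020.4 ± 9.996 (SD, n = 3), 0.24 ± 0.11 (limma adjusted p = 0.189). Fetub, at 798 ± 167 (SD, n = 5) against 1012 ± 111 (SD, n = 3), was the member with a negative difference, -0.36 ± 0.18 (limma adjusted p = 0.207), and its groups overlapped through explant 4. Without explant 4 it was called lower, at -0.47 (limma adjusted p = 0.0443). With the limit of 2 counts per base undone the differences were 0.84 for Alb, 0.87 for Hpx, 0.74 for Gc, 0.72 for Ahsg and Trf, 0.40 for Ambp, 0.25 for Ttr, 0.06 for Rbp4 and -0.45 for Fetub. The iris shares were kept as solved from the deposited tables and were not solved again with the limit undone.

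Liver-enriched genes outside the list gave the setting for this, in groups that were chosen after the values had been seen: genes with at least 20 TPM in liver, an iris level under 20% of that, and at least 500 bases. Their median difference between corrected explants and liver was -0.74 for the 307 genes with 0.05 to 0.2 counts per base in liver, -0.46 for the 151 genes from 0.2 to 0.5 and -0.36 for the 56 genes from 0.5 to 0.8. It was -0.03 for the 10 genes from 0.8 to 1.2 and -0.08 for the 2 genes above. All 9 members stood above the median of other liver-enriched genes of their count range, with few genes in the upper ranges, and Fetub (-0.36, 0.49 counts per base) was the nearest to it. Alb and Ttr, with iris levels at 25.2% and 20.5% of liver, did not themselves meet the rule of under 20%.

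Against isolated hepatocytes, 5 members were called higher in corrected explants and 0 lower, against 16.2% and 3.96% of the 20726 genes tested. Hpx differed by 1.11 ± 0.17 (limma adjusted p = 0.00245), followed by Ahsg, Gc, Trf and Ambp at 0.84, 0.72, 0.58 and 0.51. Alb, at 0.61 ± 0.21, missed the threshold (limma adjusted p = 0.074). Ttr, Rbp4 and Fetub differed by 0.05, 0.15 and -0.17 and overlapped, whereas 6 members were higher without overlap, as held for 23.1% of genes, and 0 lower, as held for 8.38%, and the median of all genes was 0.75. Trf lost its call without explant 2, explant 4 or any of the 3 hepatocyte preparations (adjusted p of 0.0669 to 0.155), Ambp without preparation 1 or 2 (0.0611 and 0.0683), so that 3 members stayed called without either of those preparations, and Alb gained a call without explant 6 (0.0387).

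Against the spheroids in vitro, 1 member, Ambp, was called higher in corrected explants, at 0.64 ± 0.14 (limma adjusted p = 0.0331), and 0 lower, against 5.08% and 1.02% of 21217 genes. At an unadjusted p under 0.05, 7 were higher, but the share of all genes past that threshold was not counted. The other 8 differed by 0.31 to 0.65, around the median of all genes of 0.54, and the TPM of all 9 were higher without overlap, as held for 17.1% of genes, with 9.47% lower. With 2 spheroid samples this call was lost when any sample but explant 6 was left out (adjusted p up to 0.411). The 3 comparisons share the explants, so their differences are not independent of each other.

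**Figure D5:**
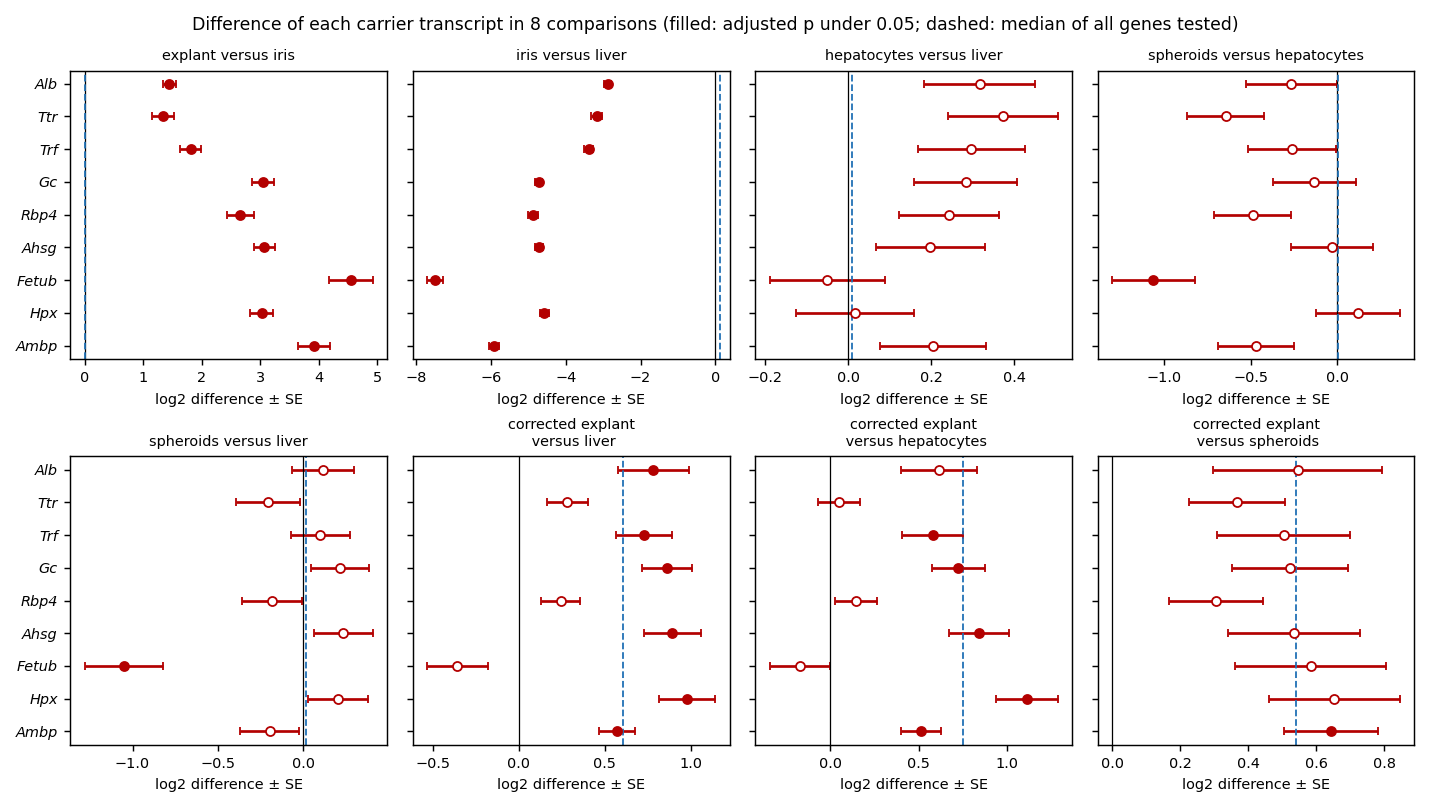
Log2 differences ± SE (x axes) of the 9 members in the 8 comparisons, from edgeR on counts for the first 5 panels and limma on log2(TPM + 1) for the 3 with corrected explants, with filled points for an adjusted p under 0.05 and a dashed line for the median of all genes tested. All 9 are called in the panels with iris, and Fetub alone is called in both panels of spheroids against hepatocytes and liver.

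The third question was what isolation and culture did to these transcripts. Between hepatocytes and liver, 0 of the 9 members were called by edgeR in either direction, against 0.785% of 12236 genes higher and 2.84% lower. At an unadjusted p under 0.05, for which no share of all genes was counted, 3 were higher and 0 lower. DESeq2 and limma-voom also called 0 members. The differences ran from -0.05 ± 0.14 for Fetub to 0.37 ± 0.13 for Ttr (edgeR adjusted p = 0.133). Alb stood at 3315, 3459 and 4115 TPM in hepatocytes and at 3310.1, 3258 and 3097 TPM in liver, and the lowest hepatocyte value was just above the highest liver value. Ttr and Gc also did not overlap, so 3 members were higher, as held for 7.35% of genes, and 0 lower, as held for 23.8%, whereas Trf, Rbp4, Ahsg, Fetub, Hpx and Ambp did.

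In spheroids, Fetub was the member that passed. It stood at 464 and 593 TPM in spheroids against 821, 933 and 911 TPM in hepatocytes and 903, 1126 and 1007 TPM in liver. The difference was -1.06 ± 0.24 from hepatocytes (edgeR adjusted p = 0.0164) and -1.05 ± 0.23 from liver (edgeR adjusted p = 0.013). Of all genes tested, 13.4% were called lower against hepatocytes and 15% against liver. Leaving out hepatocyte preparation 3 moved the adjusted p against hepatocytes to 0.052, and leaving out liver 2 or spheroid sample 1 moved that against liver to 0.0538 and 0.0504. For the 151 other liver-enriched genes with 0.2 to 0.5 counts per base in liver, a grouping chosen after the values had been seen, the median difference was -1.01 from hepatocytes and -0.71 from liver.

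Its paralogue Ahsg was not called in spheroids. It stood at 3701 and 3680.5 TPM in spheroids, 2741, 2923 and 3319.9 TPM in hepatocytes and 3144, 2817 and 2699 TPM in liver, a difference of -0.03 ± 0.24 from hepatocytes (edgeR adjusted p = 0.939), whose sign turned under several scalings. The ratio of Fetub to Ahsg within a sample, which no scaling of the library can change, was 0.287 to 0.400 in liver and 0.274 to 0.319 in hepatocytes, and 0.125 and 0.161 in spheroids. In explants it was 0.102 to 0.175 as deposited and 0.109 to 0.183 after correction, so spheroids and explants lay below liver and hepatocytes without overlap. With the limit undone the ratio was 0.174 to 0.282 in liver, 0.193 to 0.229 in hepatocytes, 0.0642 and 0.0909 in spheroids, and 0.0816 to 0.115 in explants. The ratio was chosen after the values had been seen and was not tested.

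The other 8 members did not pass in spheroids. Against hepatocytes 0 were called higher, where 12.5% of 12247 genes were, and against liver 0, where 15% of 12959 genes were. At an unadjusted p under 0.05, for which no share of all genes was counted, 2 members, Fetub and Ttr, were lower than hepatocytes. At that threshold 1, Fetub, was lower than liver. Ttr, at 1553 and 1670.3 TPM against 1882, 1972 and 2179 TPM in hepatocytes, differed by -0.64 ± 0.22 (edgeR adjusted p = 0.0688). DESeq2 and limma-voom placed it past the threshold (adjusted p = 0.0172 and 0.0486), as did edgeR without spheroid sample 2 (0.0381).

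The scale mattered for the abundant members in culture. By TPM, Gc, Ahsg and Hpx were higher in both spheroid samples than in every hepatocyte preparation, as held for 44.2% of genes, while Ttr, Rbp4 and Fetub were lower, as held for 15.8%. With TMM scaling the differences of Gc, Ahsg and Hpx were -0.13, -0.03 and 0.12, and with library size alone, which moved the median of all genes to 0.27, Gc and Ahsg were at 0.12 and 0.23. Hpx stood at 3601 and 3665 TPM in spheroids, 2532, 2383 and 3059 TPM in hepatocytes and 3015, 2982 and 2718 TPM in liver. Against liver, Alb, Trf, Gc, Ahsg and Hpx were higher in spheroids by TPM without overlap, as held for 35.4% of genes, and Rbp4 and Fetub lower, as held for 24.5%.

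Within liver the levels fell in the order Alb, Hpx, Ahsg, Gc, Trf, Ambp, Rbp4, Ttr and Fetub by mean TPM, a scale per length. The same 5 genes led in hepatocytes and spheroids. Across groups, Alb was highest in spheroids, then hepatocytes, liver, explants and iris, and spheroids and hepatocytes overlapped. Explants as deposited and irises took the last places for every member, with no overlap between them or with the group above.

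Other secreted carriers of plasma made up a list of 10 genes. Of these, 9 were tested in explants against iris, where 8 were called higher, against 9.04% of all genes. Tcn2, the transcobalamin that carries vitamin B12, was not called there. In corrected explants against liver 2 of 10 were called higher and 0 lower, against 12.2% and 3.5% of all genes (list median 0.25, all genes 0.61): Hp, haptoglobin, which binds free hemoglobin, by 0.72 ± 0.14 and Cp, the copper protein ceruloplasmin, by 0.69 ± 0.16. In spheroids against hepatocytes 3 of 9 were called higher and 3 lower, against 12.5% and 13.4% of all genes. Serpina7, thyroxine-binding globulin, differed by 1.67 ± 0.25, and Afp, the fetal member of the albumin family, by 1.93 ± 0.52, at 24.02 TPM on average in spheroids against 5.03 TPM in hepatocytes. Serpina6, corticosteroid-binding globulin, differed by -4.71 ± 0.34, Orm1, an acute phase protein, by -3.29 ± 0.32 and Afm, the albumin-family carrier of vitamin E, by -1.46 ± 0.22. Of the albumin family, then, Afp was called higher and Afm lower in culture, and Alb and Gc were not called.

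A list of 7 partners and neighbours held Itih1, Itih2 and Itih3, heavy chains linked to bikunin from Ambp, and Itih4 of the same family. It also held the cystatin-family genes Hrg, Kng1 and Kng2. Of these, 7 of 7 were called higher in explants than in iris (list median 4.34, all genes 0.01), against 9.04% of all genes. In corrected explants against liver 0 were called higher and 2 lower, against 12.2% and 3.5% of all genes: Hrg, the histidine-rich glycoprotein, which lies 11.3 kb from Fetub, by -0.58 ± 0.16, and Itih4 by -0.63 ± 0.13. In spheroids against hepatocytes 2 were called lower, Hrg at -1.48 ± 0.35 and Itih1 at -1.39 ± 0.25, and 0 higher, against 13.4% and 12.5% of all genes. Of the genes near Fetub, Hrg was thus called lower in spheroids, and Ahsg, 18.9 kb away on the other side, Kng2 at 46.1 kb (0.14 ± 0.20) and Kng1 at 118 kb (-0.53 ± 0.24) were not.

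Of the receptors and recycling genes, which take up or protect the cargo carriers, 10 of 11 were tested in explants against iris, and 4 were called higher, against 9.04% of all genes. These were Asgr1 and Asgr2, the subunits of the asialoglycoprotein receptor, Tfr2, the iron-sensing transferrin receptor of hepatocytes, and Stra6l, a hepatic retinol-binding protein receptor. Fcgrt, the neonatal Fc receptor that rescues albumin from degradation, stood at 387 TPM in explants, 415 TPM in iris and 568 TPM in liver on average and was not called in explants against iris. In corrected explants against liver 1 of 10 was called lower and 1 higher, against 3.5% and 12.2% of all genes. Tfr2 was called lower by -1.25 ± 0.27. Stra6, the retinol transporter of the eye, was called higher by 4.54 ± 0.72, with 56.0 TPM in iris and 0.388 TPM in liver on average. In spheroids against hepatocytes 4 of 7 were called lower, Asgr1, Asgr2, Tfr2 and Lrp1, the hepatic scavenger receptor that takes up the heme-hemopexin complex, and Tfrc, the general transferrin receptor, was called higher by 1.25 ± 0.27, again against 13.4% and 12.5% of all genes.

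Of 13 regulators of liver secretory genes, 6 were called lower in corrected explants than in liver and 0 higher, against 3.5% and 12.2% of all genes (list median -1.27, all genes 0.61), and 8 lower and 0 higher against hepatocytes, against 3.96% and 16.2%. Hnf4a, a nuclear receptor central to hepatocyte identity, differed from liver by -0.92 ± 0.20, Cebpa by -2.04 ± 0.29 and Onecut1 by -2.47 ± 0.60. The other 3, the clock-linked factors Dbp, Tef and Hlf, had a mean of 100.2, 137 and 54.2 TPM in iris, higher than in the explants, and were at 0 after the subtraction. In spheroids against hepatocytes 3 of 13 were called lower, Cebpa and Onecut1 among them, and 1, Foxa3, higher, against 13.4% and 12.5% of all genes.

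Over the 16 samples each member ran close to many liver genes. Among 10932 genes with a mean of at least 10 TPM, the nearest to Alb in log2(TPM + 1) were Gm20425 (Pearson r = 0.998), which shares exons with Trf, Serpina1b (0.993) and Apoa1 (0.993). Nearest to Gc was Cpb2 (0.998), to Ttr the bile acid transporter Slc10a1 (0.992), to Rbp4 Serpina1c (0.9987) and to Trf again Gm20425, whose r of 1.00 rests on shared reads. Nearest to Ahsg was C4bp (0.998), to Hpx Hp (0.998), to Ambp Kng1 (0.998) and to Fetub Asgr1 (0.998). Ttr and Rbp4 had 0 other members among their 50 nearest genes, Fetub 1, and the other 6 had 5 or 6. The 16 points fall into 5 groups, so the contrast between liver-derived samples and iris enters every r.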

How the data were processed

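Total RNA was sequenced by Smart-seq3. Per the labels and file headers, the authors aligned reads with TopHat2 to mm10, removed duplicate reads and deposited raw read counts per gene from featureCounts without strand, counting a read for each gene it overlapped, with 3 technical libraries already collapsed per sample in 1 table. The authors also deposited TPM per sample, and a score per sample, TPM less the iris part, from their CIBERSORT iris fraction. Both UMI-tools and SAMtools are named among the tools of the study, and which of them removed which duplicates, by molecular identifier or by position, is not given in the sources used here. Removal by position would lower the counts of abundant genes.

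Here counts were tested with edgeR 4.0.16 (TMM, quasi-likelihood, filterByExpr, groups of each comparison alone) and corrected explants with limma 3.58.1 on log2(TPM + 1), in R 4.3.3, with Benjamini-Hochberg adjustment over all genes tested. DESeq2 1.42.0, limma-voom, other scalings, filters, pseudocounts, left-out samples and a replicate block were alternatives. The iris formula was applied to all 5 explants with negative values set to 0 and without rescaling the totals. The same iris shares were used with a limit of counts per base undone. The fits were tested on simulated data. Members and gene lists were chosen with earlier results of these data known, and all 9 members are named. Promoter sequences are from RefSeq. The values of 1 listed regulator are not reported here.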

Additional observations from a re-analysis of the deposited data

Results flagged for a closer look

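Among 5 explants, 1 sample stood apart from the other 4 for 2 members after the correction for iris. Ttr was 2545 corrected TPM in explant 4, against 1922 to 2021 in the others, with a gap of 0.841 of the range. Fetub was 1090.2 corrected TPM in explant 4, against 686 to 774 in the others, with a gap of 0.783 of the range. Before correction neither stood apart. Explant 4 had an iris share of 81%, and the part of that share in these values was not tested. Of 18 such checks chance flags about 1 in 20.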

How the results depend on the processing

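All 9 members stayed called in explants against iris and in iris against liver under every alternative run, with 9 throughout when samples were left out. Between hepatocytes and liver, where no member was called, Hpx turned to -0.10 with library size alone, -0.023 with at least 10 counts in every sample, and -0.22 and -0.31 with the limit of 2 and 1.8 counts per base undone, Ahsg to -0.0013 with the limit of 1.8, and Fetub to 0.0073 with all 5 groups in 1 fit. In spheroids against hepatocytes, 2 members were called lower with DESeq2, limma-voom, no filter, all 5 groups in 1 fit and the limit of 1.8. Gc turned to 0.12 with library size alone and to 0.022 and 0.079 with the limits of 2 and 1.8, and Ahsg to 0.23, 0.29 and 0.45 under these, and to 1.3e-05 without a filter.

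Without the correction for iris, 0 members were called higher and 9 lower in explants against liver, hepatocytes and spheroids, since the iris part then stays in. Alb was -0.65, -0.82 and -0.89 in the 3 comparisons, Ttr -1.07, -1.30 and -0.99, Trf -0.82, -0.97 and -1.04, Gc -0.92, -1.05 and -1.25, Rbp4 -1.48, -1.58 and -1.42, Ahsg -0.89, -0.94 and -1.25, Hpx -0.80, -0.66 and -1.12, and Ambp -1.27, -1.33 and -1.20, and Fetub against spheroids was -1.28. With a required fold of over 1 on the log2 scale, 0, 1 and 0 members were called higher against liver, hepatocytes and spheroids. Against spheroids, 0 were called with a pseudocount of 10, the deposited corrected values, or the limits of 2 and 1.8, and with the limit of 1.8 Ahsg turned to -0.033 there and Rbp4 to -0.026 against hepatocytes. The cause was not tested.

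With the replicate block, 0 members were called higher in corrected explants against liver, hepatocytes and spheroids, and Ahsg in spheroids against hepatocytes turned to 0.083. Only explants 1 and 2 share a number with a liver, hepatocyte or spheroid sample. The block therefore left little to measure the spread of the corrected explants, and the loss of those calls decides nothing. The labels give no pairing, and correlations of same-numbered samples ran from -0.13 to 0.16, so the numbers were taken only as names.

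Leaving out 1 sample at a time gave 0 to 2 members lower in spheroids against hepatocytes, 0 to 1 against liver, 2 to 6 higher and 0 to 1 lower in corrected explants against liver, 3 to 6 higher against hepatocytes and 0 to 1 against spheroids. The sign turned, over these ranges, for Fetub (-0.16 to 0.057) and Hpx (-0.11 to 0.11) in hepatocytes against liver, Ahsg (-0.15 to 0.10) and Hpx (-0.020 to 0.29) in spheroids against hepatocytes, Alb (-0.061 to 0.23) and Trf (-0.046 to 0.19) in spheroids against liver, and Ttr (-0.022 to 0.11) in corrected explants against hepatocytes. Of the values of single members, 1121 kept their direction and side of the threshold, 55 lost and 15 gained a call, and 51 turned sign. Depth limits Fetub in iris, at 27 to 39 counts. Whether counts per base are limited by duplicate removal was not tested, and 0 genes reached the assumed limits of 2 and 1.8.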
